A study of Homo sapiens with 10 samples.

Results

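The extracellular sulfatases SULF1 and SULF2, the syndecans SDC1, SDC2, SDC3 and SDC4, and the glypicans GPC1, GPC3, GPC4 and GPC6 were followed in RNA sequencing of cultured lung cancer cells. These 10 genes, of 46427 listed, were chosen by gene symbol with earlier results of these libraries known, among them the high FPKM of SULF2 in drug-resistant cells. The values of SULF2 after drug treatment are therefore given as a description, without a test. Poly(A) RNA was measured in 10 libraries of H460 and A549, established human lung cancer cell lines. H460 was sequenced as 3 libraries of parental cells in 2D culture, 1 of cisplatin-resistant (CR) cells, 2 of paclitaxel-resistant (PR) cells, 1 of doxorubicin-resistant (DR) cells and 1 of tumor sphere (TS) cells. A549 was sequenced as 1 library of 2D and 1 of TS cells. The resistant cells were those that stayed alive after 3 days in 4 µM cisplatin, 5 nM paclitaxel or 0.5 µM doxorubicin and 3 further days in fresh medium, followed by re-plating. TS cells, labelled as circulating tumor cell cultures, had been grown in suspension on coated plates and passaged at least 3 times, in a medium with EGF and basic FGF for which no serum is listed. The 2D medium held fetal bovine serum, so TS and 2D cells differed in medium as well as in attachment. Each library held between 59499787 reads counted on genes (H460 PR 2) and 89541774 (H460 DR 1). The labels do not say whether libraries of a group came from separate cultures, so p-values measure only the spread between these libraries, which may be technical. Where CR, PR and DR libraries were fitted as 1 group, that spread also includes differences between the drugs.

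Heparan sulfate is a long sugar chain carried at the cell surface by syndecans, which span the membrane, and by glypicans, which are held by a lipid anchor. The pattern of sulfate groups along the chain sets which growth factors, such as those of the FGF, WNT and hedgehog families, it can bind and present to their receptors. SULF1 and SULF2 act outside the cell and remove particular sulfate groups from finished chains, which can release bound ligands. Several of these genes have been studied in lung and liver cancers, GPC3 as a liver tumor antigen and SULF2 in non-small cell lung cancer.

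The cell lines were checked against markers. Among the epithelial markers, KRT8 was at an FPKM (fragments per kilobase of transcript, scaled to the size of the library) between 282.7 and 3866 over the 10 libraries, while EPCAM was at most 1.04 in any of them. KRT18 was 190.4 to 3229 over all libraries. KRT7 was 2.37 to 11.2 in H460 and 1221 and 372.3 in A549 2D and TS cells, and KRT19 was 138.3 to 738.3 in H460 and 3.57 and 68.3 in A549. CDH1 was at most 0.0266 in H460 but 9.29 and 11.9 in A549 2D and TS cells. No lung lineage marker reached an FPKM of 1 in any library, and SFTPB had no read in any of them, so the tissue label was not matched by surfactant genes or NKX2-1. Of 5 leukocyte markers, CD68 and CD14 were at an FPKM of at least 1 in all 10 libraries, and their list summed to 17.9, 25.2 and 26.4 in parental cells, 72.6 in CR, 42.3 and 61.6 in PR, 58.7 in DR and 29.9 in H460 TS cells, and for A549 to 22.1 in 2D and 80.1 in TS culture. CD68 was the most abundant of them in each library, while PTPRC and CD3E had no read in any parental library and stayed at or below 0.157 elsewhere. Of 7 fibroblast markers, 1 to 4 reached an FPKM of 1. Their sums were 14.9, 26.5 and 32.5 in parental cells, 10.7 in CR, 26.8 and 21.9 in PR, 10.3 in DR and 29.6 in H460 TS cells, and for A549 4.28 in 2D and 10.1 in TS culture, with COL3A1, LUM or PDGFRB as the most abundant gene. COL1A1 was at most 0.193 in parental and at least 0.783 in drug-resistant libraries, and PDGFRB was 0.862, 2.32 and 4.23 in parental and 4.24 to 7.07 in drug-resistant libraries, so that parental 3 and DR were almost level, while COL3A1 was at least 13.6 in parental and at most 7.22 in drug-resistant libraries. The highest FPKM of an endothelial marker was 0.463, that of KDR in H460 TS cells. CD68, the leukocyte sum and COL1A1 were higher in all 4 drug-resistant libraries than in the parental ones, as several genes below were. So were 25.8% of all genes tested between these cells, by FPKM. The part of these markers in the values of the genes below was not tested. In these bulk libraries, fewer cells with an RNA and less of it per cell cannot be told apart.

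SULF2 (NCBI Gene 55959; chromosome 20, 47656348 to 47786616 on the minus strand of GRCh38) had an FPKM of 1.73, 0.838 and 1.30 in the 3 parental libraries. It was 56.5 in CR, 40.0 and 42.1 in PR and 66.4 in DR cells. Every drug-resistant library was far above every parental one, and the PR libraries lay below the CR and DR libraries. The group means were 1.29 ± 0.448 (SD, n = 3) and 51.2 ± 12.5 (SD, n = 4), a 39.7-fold ratio. Scaled to the reads counted in each library (CPM), it had 3.72 to 9.82 in parental and 231.9 to 352.8 in drug-resistant libraries, and the log2 fold change fitted to the counts was 5.19. H460 TS cells, at 1.29, lay within the parental range, and A549 cells had 8.43 in 2D and 7.20 in TS culture. The library names take 2 forms, of which one covers parental 1 and 3 and PR 1 and the other parental 2, PR 2, CR and DR. The difference of SULF2 in log2(FPKM + 1) was 4.50 over all 7 libraries, 4.03 within the first form (1 resistant library against 2 parental) and 4.91 within the other (3 against 1). SULF2 shares 96 exon bases with NCOA3 and 212 with the antisense gene AL354813.1, both on the opposite strand, and the kit used does not mark strand, so their reads cannot be told apart there. NCOA3 had an FPKM from 9.82 to 11.6 in parental and from 8.92 to 14.2 in drug-resistant libraries.

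Promoter windows are shown for SULF2, SDC3, SDC4 and GPC1 as the 250 bases before a RefSeq start (GRCh38.p14), read in the direction of the gene. Windows of SDC1, GPC4 and GPC6 and those at the other SULF2 starts were searched as well and are not shown. SULF2 is shown at 2 of its starts, those within 11 bases of the start of a protein-coding transcript, the downstream one first, and gene-level values do not tell which start was used. Capitals mark matches on either strand to the GC box GGGCGG or the CCAAT box CCAAT, with overlapping matches merged.
SULF2, chr20:47785482-47785731, minus strand: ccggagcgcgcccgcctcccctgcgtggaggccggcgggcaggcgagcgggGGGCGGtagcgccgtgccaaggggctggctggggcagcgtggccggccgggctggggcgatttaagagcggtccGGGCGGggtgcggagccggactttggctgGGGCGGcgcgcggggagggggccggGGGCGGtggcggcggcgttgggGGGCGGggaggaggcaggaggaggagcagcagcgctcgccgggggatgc
SULF2, chr20:47786628-47786877, minus strand: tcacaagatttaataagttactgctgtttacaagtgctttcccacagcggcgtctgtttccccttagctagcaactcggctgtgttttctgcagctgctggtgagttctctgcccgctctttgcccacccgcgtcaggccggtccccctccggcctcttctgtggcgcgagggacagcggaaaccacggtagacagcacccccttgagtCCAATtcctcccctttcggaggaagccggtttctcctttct
SDC3, chr1:30908759-30909008, minus strand: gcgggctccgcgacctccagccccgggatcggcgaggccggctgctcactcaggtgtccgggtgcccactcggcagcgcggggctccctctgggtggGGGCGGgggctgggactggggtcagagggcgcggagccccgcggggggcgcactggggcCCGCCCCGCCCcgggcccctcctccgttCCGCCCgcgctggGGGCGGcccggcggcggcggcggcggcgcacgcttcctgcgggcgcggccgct
SDC4, chr20:45348425-45348674, minus strand: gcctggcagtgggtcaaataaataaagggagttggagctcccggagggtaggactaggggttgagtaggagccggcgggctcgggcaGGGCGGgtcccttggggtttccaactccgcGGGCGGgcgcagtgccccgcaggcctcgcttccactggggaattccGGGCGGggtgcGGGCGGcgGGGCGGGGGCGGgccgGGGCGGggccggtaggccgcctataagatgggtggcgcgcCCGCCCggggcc
GPC1, chr2:240435413-240435662, plus strand: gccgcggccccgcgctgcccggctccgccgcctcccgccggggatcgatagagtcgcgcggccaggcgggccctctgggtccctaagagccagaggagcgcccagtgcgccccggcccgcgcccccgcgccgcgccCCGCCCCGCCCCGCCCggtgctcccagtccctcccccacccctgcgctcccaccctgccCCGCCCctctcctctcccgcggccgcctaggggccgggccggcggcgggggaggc
GC boxes were matched 5 times in the first SULF2 window, 0 times in the other, 5 times in SDC3, 8 times in SDC4 and 4 times in GPC1, where overlapping matches count separately. A GC box was present in 42.6% of the 35116 promoter windows of this length, and a CCAAT box, matched once in the upstream SULF2 window, in 32.0%. The TATA box TATAAA, the AP-1 site TGANTCA and the p53 half-site had no match in these windows, and were found in 10.7%, 6.57% and 5.57% of all windows. The GPC6 window, not shown, held 1 match to the TATA box. A SULF2 window not shown, chr20:47764429-47764678, held 4 matches to the CCAAT box and 1 to the GC box. The share of G and C was 81.2% and 56.8% in the SULF2 windows, 83.6% in SDC3, 73.6% in SDC4 and 84.0% in GPC1, beside a median of 58.0% over all windows. These letters describe the windows and were not tied to the measured differences.

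SULF1 (NCBI Gene 23213; chromosome 8, 69466624 to 69660915, plus strand) was close to absent, and is given in counts. The parental libraries had 0, 0 and 7 reads. CR had 24, the PR libraries 50 and 23, DR 59 and H460 TS 21, while A549 had 0 in 2D and 3 in TS cells. A count of 0 allows up to 3 counts, which covers counting error only. All drug-resistant libraries were above the parental ones, but the highest FPKM was 0.102, far below that of SULF2 in the same cells. More genes had a read in CR (22720), PR (25781 and 26133) and DR (26745) than in parental libraries (21036 to 21603). What part this had in the low counts of SULF1, GPC3 and GPC4 was not tested. SULF1 passed the filter on low counts through the drug-resistant group, where it was higher, so its place among the genes tested was not independent of its difference.

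**Figure D1:**
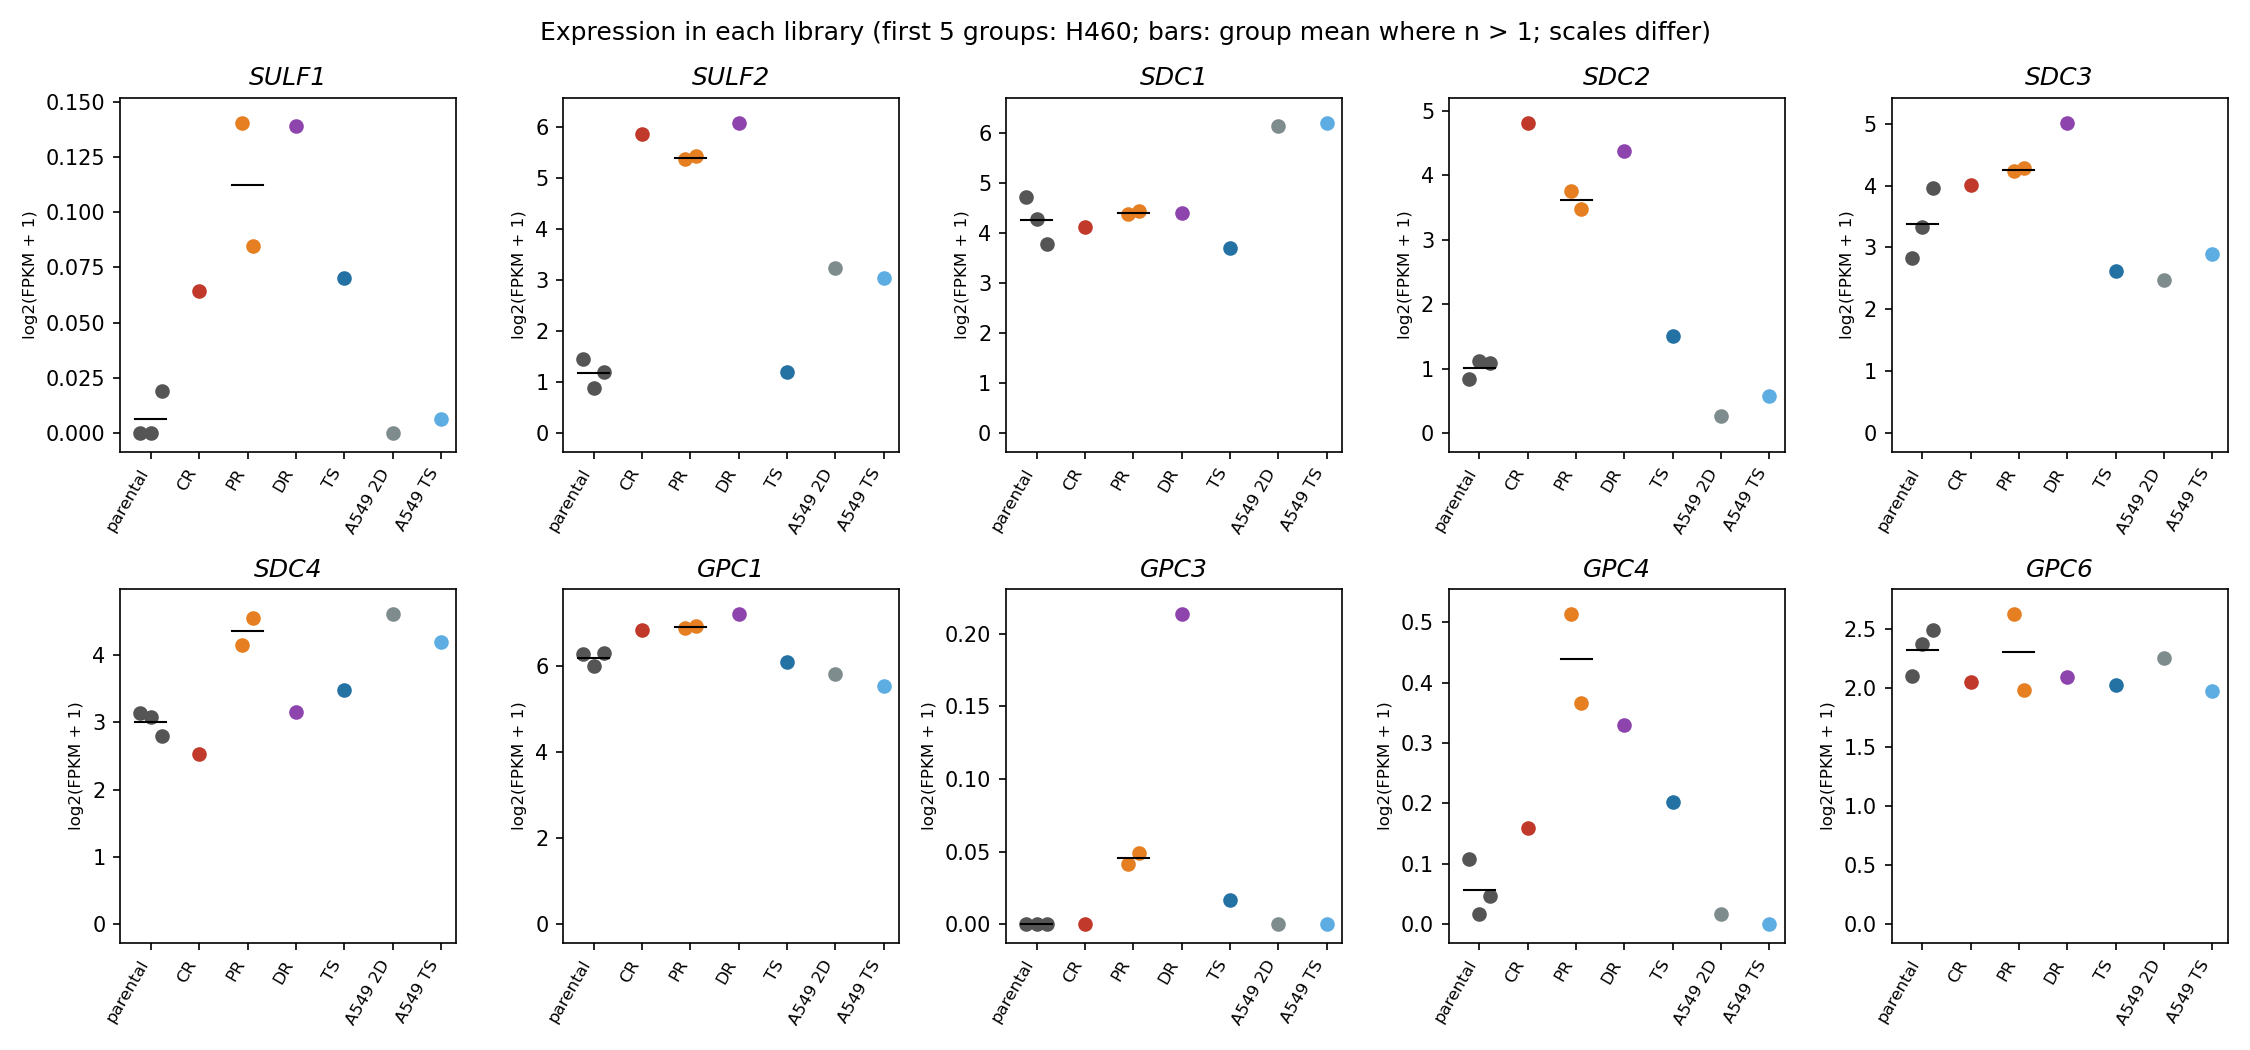
Expression of the 10 genes as log2(FPKM + 1) in each library, 1 panel per gene with its own scale; points are libraries, horizontal bars are means of the 3 parental and 2 PR libraries. SULF2 and SDC2 were higher in all 4 drug-resistant libraries than in any parental library, while SDC1 overlapped between them.

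Among the syndecans, which link the chains to the cytoskeleton and to adhesion sites, SDC2 (NCBI Gene 6383; chromosome 8, 96493351 to 96611780, plus strand) differed most between drug-resistant and parental cells. Its FPKM was 0.793, 1.16 and 1.13 in parental, 27.2 in CR and 19.7 in DR cells, and 12.6 and 10.1 in PR cells. The parental and drug-resistant libraries did not overlap, and both PR libraries were below CR and DR. In the edgeR quasi-likelihood fit of 4 drug-resistant against 3 parental libraries, with Benjamini-Hochberg adjustment over all genes tested, SDC2 rose by 4.01 on the log2 scale (standard error 0.42, adjusted p = 0.00024), higher in 4 of 4 libraries. Its difference in log2(FPKM + 1) was 3.09 over all 7 libraries and 2.80 and 3.11 within the 2 forms of library name. H460 TS cells had 1.85, above the parental range, and A549 cells 0.201 in 2D and 0.483 in TS culture.

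SDC4 (NCBI Gene 6385; chromosome 20, 45325288 to 45348424, minus strand), a widely expressed syndecan of focal adhesions, had an FPKM of 7.77, 7.41 and 5.98 in parental cells, 16.8 and 22.5 in PR, 4.80 in CR and 7.90 in DR cells. The PR libraries were above all others of H460, CR was below every parental library and DR lay just above them in FPKM and within their range in TPM. Over the 4 drug-resistant libraries the edgeR log2 fold change was 0.73 (standard error 0.40, adjusted p = 0.18), which did not pass the threshold of 0.05, and without the CR library it did (0.98, adjusted p = 0.0325). For PR cells alone against the parental cells it rose by 1.24 (standard error 0.24, adjusted p = 0.00622 by edgeR), higher in 2 of 2 libraries. Without PR 2, which left 1 PR library, the call was lost while the log2 fold change was 1.06. A contrast of PR with CR and DR cells was chosen after seeing these values of SDC4 and SDC2, so its p-values for them are no independent support and are not given. It called 0 of 19770 genes with edgeR (0.0%), so neither SDC4 nor SDC2, where 2466 had an unadjusted p under 0.05. With limma on log2(FPKM + 1) it called 101 genes, SDC4 among them but not SDC2. Since SDC4 and SDC2 led to this contrast, neither outcome is read as a result on a difference between the drugs. Within the forms of library name, the difference of SDC4 in log2(FPKM + 1) between drug-resistant and parental cells was 1.18 in the form with 1 PR library and 0.34 in the form with CR, DR and PR 2, against 0.60 over all 7.

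SDC3 (NCBI Gene 9672; chromosome 1, 30869467 to 30908761, minus strand), best known from neural tissue, had an FPKM of 6.14, 9.11 and 14.6 in parental, 15.1 in CR, 17.7 and 18.6 in PR and 31.4 in DR cells. The groups did not overlap in FPKM, but parental 3 was above CR in TPM (34.8 and 33.3) and in CPM (92.7 and 89.0). The edgeR log2 fold change was 0.93 (standard error 0.35, adjusted p = 0.0593), not past the threshold. The adjusted p was 0.0172 without parental 3, 0.0189 with limma on log2(FPKM + 1), 0.0216 with DESeq2 and 0.0389 with upper-quartile factors. Over all alternatives it ranged from 0.0172 to 0.195. SDC1 (NCBI Gene 6382; chromosome 2, 20200797 to 20225433, minus strand), the main syndecan of epithelia, had 25.1, 18.5 and 12.6 in parental cells and 16.2 to 20.5 in the drug-resistant libraries, which lay inside the parental range. Its edgeR log2 fold change was -0.08 (standard error 0.21, adjusted p = 0.785), and the sign turned with upper-quartile factors (0.10), with limma (0.07) and without parental 1 (0.16).

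GPC1 (NCBI Gene 2817; chromosome 2, 240435671 to 240468078, plus strand), a glypican found on many tumor cells, had the highest FPKM of the 8 syndecans and glypicans in each H460 library. Its FPKM was 76.0, 63.0 and 77.2 in parental, 112.5 in CR, 116.5 and 120.0 in PR and 146.5 in DR cells, so that the groups did not overlap. The means were 72.1 ± 7.87 (SD, n = 3) and 123.9 ± 15.4 (SD, n = 4), a 1.72-fold ratio. GPC1 rose by 0.66 on the log2 scale (standard error 0.20, adjusted p = 0.0298 by edgeR), higher in 4 of 4 libraries. This call depended on single libraries. The adjusted p was 0.067 without parental 1 (log2 fold change 0.67), 0.115 without parental 2 (0.53), 0.0508 without CR (0.67) and 0.0807 without DR (0.55). It was 0.0514 with no filter on low counts (0.63) and 0.0525 with the form of the library name as a covariate, chosen after seeing the data (0.71). GPC1 was called with limma on log2(FPKM + 1) (adjusted p = 0.00732), DESeq2 (0.0101) and upper-quartile factors (0.00898). The difference of GPC1 in log2(FPKM + 1) was 0.77 over all 7 libraries and 0.60 and 0.98 within the 2 forms of library name.

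The other glypicans were low. GPC6 (NCBI Gene 10082; chromosome 13, 93226842 to 94407401, plus strand) had an FPKM from 3.29 to 4.64 in parental and from 2.95 to 5.17 in drug-resistant libraries, and its fitted difference was -0.28 on the log2 scale (standard error 0.23, adjusted p = 0.371 by edgeR). The difference of GPC6 in log2(FPKM + 1) turned sign between the forms of library name. It was 0.33 within the first form and -0.33 within the other, against -0.13 over all drug-resistant and parental libraries. GPC6 shares 476 exon bases with an antisense gene, whose reads cannot be told apart from its own. GPC4 (NCBI Gene 2239; chromosome X, 133300103 to 133415490, minus strand) had 33, 5 and 15 reads in the parental libraries, 52 in CR, 180 and 96 in PR, 128 in DR and 54 in H460 TS cells. All drug-resistant libraries were above the parental ones, at an FPKM of at most 0.427. A549 had 5 reads in 2D and 0 in TS cells. GPC3 (NCBI Gene 2719; chromosome X, 133535745 to 133985895, minus strand) had no read in any parental or A549 library or in CR cells, 2 in H460 TS, 6 in each PR library and 38 in DR cells. It passed the filter on low counts in none of the fits and was not tested.

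**Figure D2:**
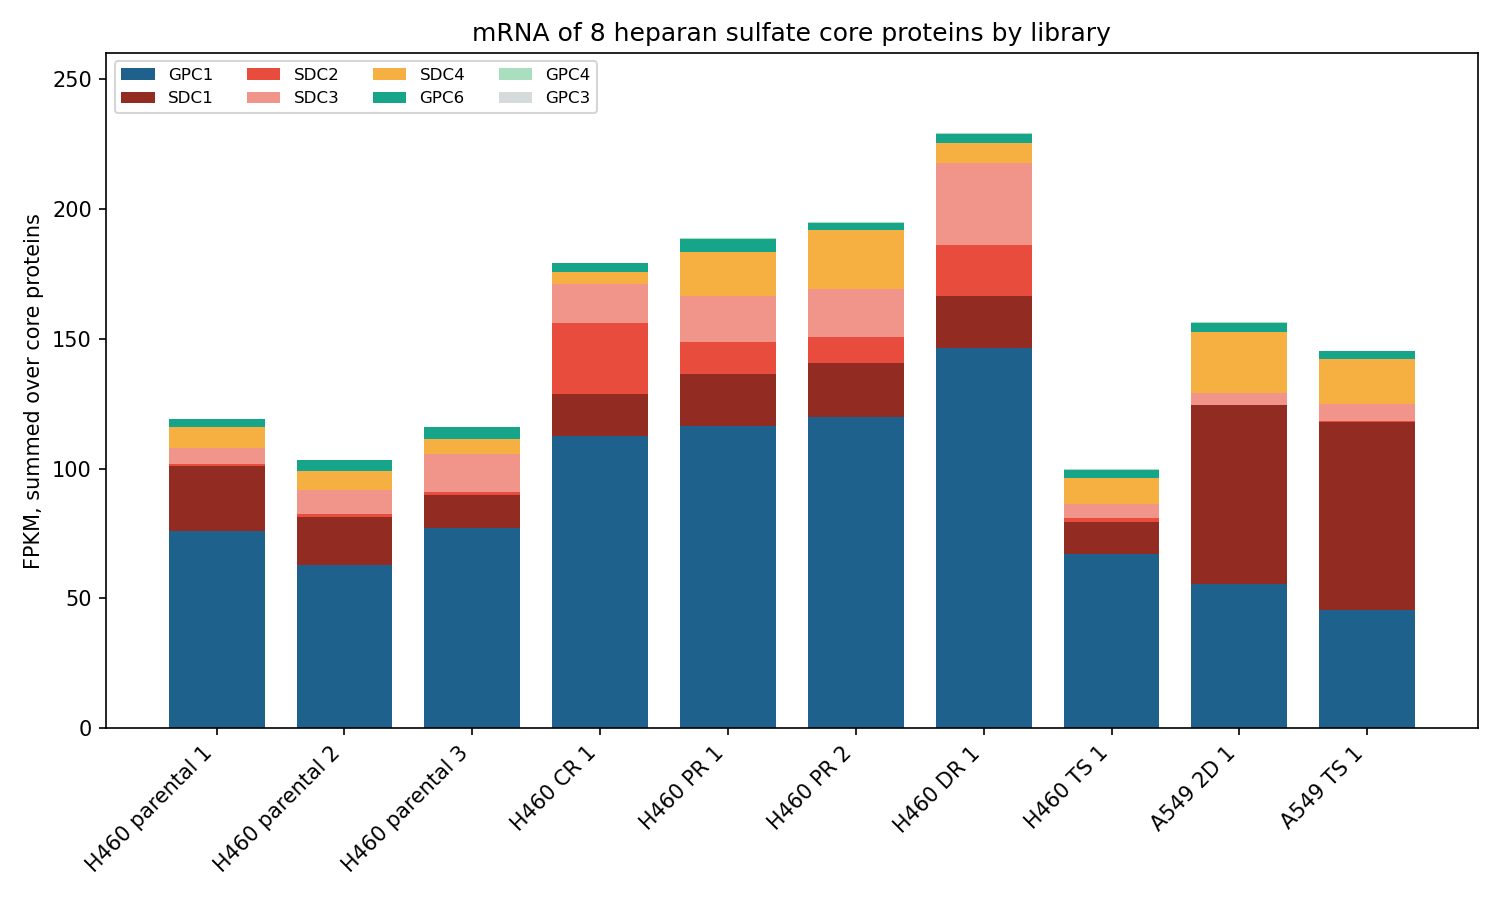
Summed FPKM of the 8 syndecan and glypican mRNAs in each library, stacked by gene on an axis that starts at 0. The sum was 103.4 to 119.2 in parental, 179.1 to 229.2 in drug-resistant and 99.7 in TS libraries of H460, and SDC1 took the largest share in A549.

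Summed over the 8 core proteins, FPKM averaged 112.9 ± 8.41 (SD) over the 3 parental libraries and 198.1 ± 21.8 (SD) over the 4 drug-resistant libraries, and each drug-resistant library exceeded each parental one. The share of GPC1 hardly moved, from 61.0% to 66.5% in parental and from 61.5% to 63.9% in drug-resistant libraries. SDC2 made up 0.665% to 1.12% of the sum in parental cells, 5.19% and 6.67% in PR, 8.61% in DR and 15.2% in CR cells. SDC1 made up 10.8% to 21.1% in parental and 8.73% to 10.5% in drug-resistant libraries. The share of SDC4 was 8.87% and 11.5% in PR, against 2.68% in CR and 3.45% in DR cells. These sums add mRNA levels per length and say nothing of the amount of protein or of the chains on it.

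Read against all genes, 6220 of 18398 genes tested (33.8%) had an adjusted p under 0.05 in the edgeR fit of drug-resistant against parental cells, 3382 higher and 2838 lower. Of SDC1, SDC2, SDC3, SDC4, GPC1 and GPC6, those with such a p were SDC2 and GPC1. SULF2 is left out of this count because it was known to be high, and SULF1 and GPC4 because they passed the filter on low counts through the group with more reads, so that their p-values are not given. With upper-quartile factors the genes called split into 4193 higher and 2031 lower, and the median over all genes tested shifted from 0.06 to 0.23 on the log2 scale, while the log2 fold change of GPC1 became 0.84. In FPKM, SDC2, SDC3 and GPC1 of these 6 had all 4 drug-resistant libraries above all 3 parental ones, as 4750 of the 18398 genes (25.8%) did. In PR cells alone, 5466 of 19430 genes (28.1%) were called by edgeR, 3381 higher and 2085 lower, and of the same 6 members those called were SDC2 and SDC4. GPC1 was called as well with upper-quartile factors (adjusted p = 0.0462), and SDC3 without parental 3 (adjusted p = 0.0179). A block on pairs 1 and 2 of PR and parental libraries, which also leaves out parental 3, called SDC3 too (adjusted p = 0.0132). That call was thus not gained by the block. The number of genes was 1008 without PR 2, 2116 without PR 1 and 3519 without parental 2, and 3026 with limma. With upper-quartile factors it was 5549, of which 4185 were higher. The fits share the parental libraries.

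Taken drug by drug with a rule of more than 2-fold in log2(FPKM + 1) and no test, SULF2 was past it for each drug, and is left out of what follows because it was known to be high. Of the other members, SDC2 was past it in CR cells, where 12.9% of genes with an FPKM of at least 1 were, SDC2 and SDC4 in PR cells (13.2% of genes), and SDC2, SDC3 and GPC1 in DR cells (11.4% of genes). The difference of SULF2 was 4.67 for CR, 4.22 for PR and 4.90 for DR, and that of SDC2 was 3.80, 2.60 and 3.36. SDC3 differed by 0.63 for CR, 0.88 for PR and 1.64 for DR, and GPC1 by 0.64, 0.71 and 1.02. The differences of GPC1 and SDC3 in DR cells rest on 1 library, and that of GPC1 was 0.94 against parental 1 alone and 0.92 against parental 3 alone, below 2-fold. With a pseudocount of 0.1 in place of 1, the genes past 2-fold numbered 3891 in place of 1632 for CR, 5601 in place of 1756 for PR and 3785 in place of 1448 for DR, and GPC4 in PR cells (1.71) and GPC3 and GPC4 in DR cells (1.38 and 1.37) joined the members past it, on few reads. Against parental 1 alone, SDC3 was past 2-fold for CR (1.17) and PR (1.42) as well. All genes past 2-fold numbered 2512 for CR against parental 1 alone, and 2776 for PR with TPM. The 3 comparisons use the same parental libraries.

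**Figure D3:**
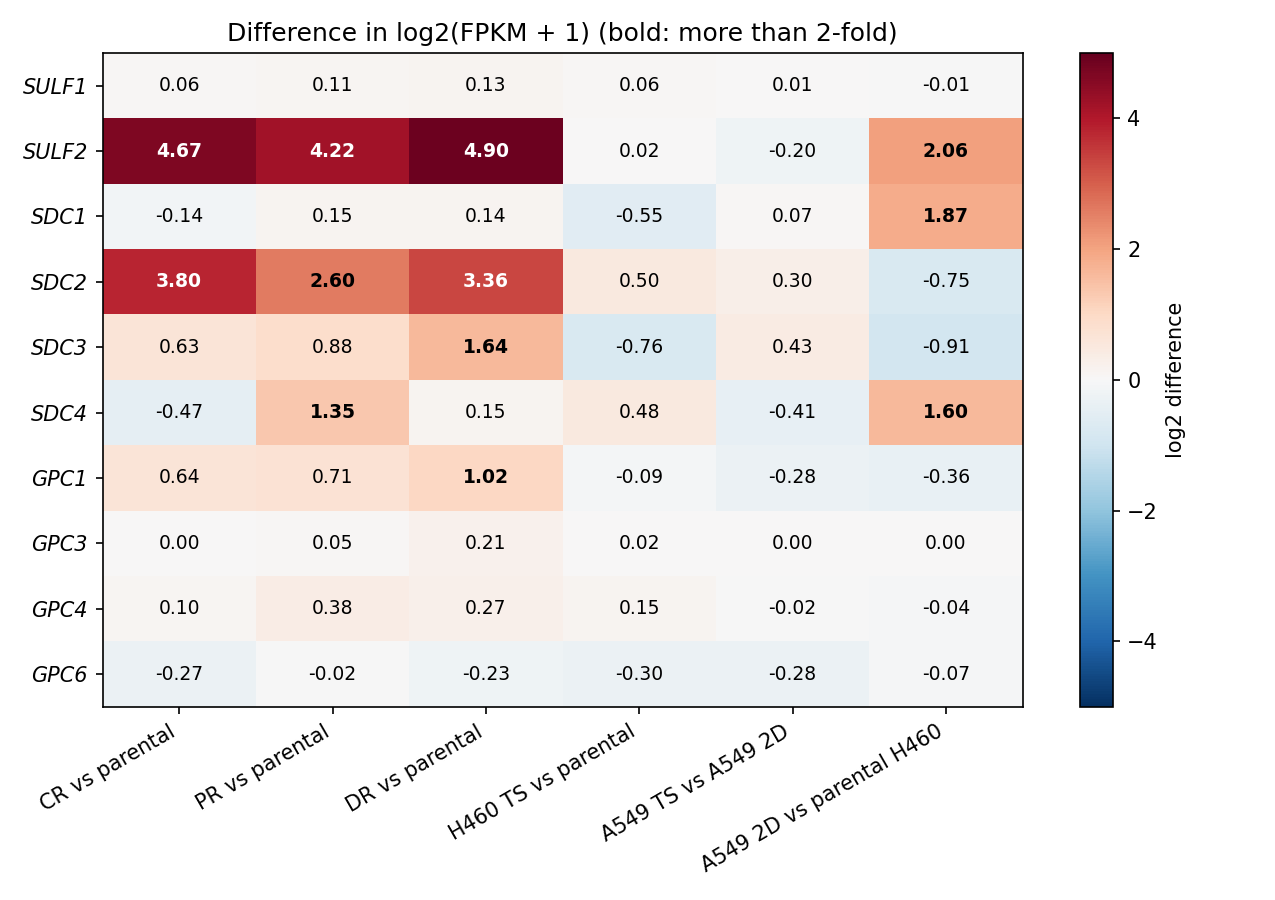
Difference in log2(FPKM + 1) of each gene (rows) in 6 comparisons (columns), with more than 2-fold in bold. SULF2 and SDC2 were past 2-fold for each drug and no gene was in either TS culture. A small value can stand for a gene with a low FPKM. SULF1 and GPC4 were not past 2-fold on this scale, though all drug-resistant libraries lay above the parental ones. The value of GPC6 in PR cells turned sign with TPM (-0.02 to 0.01).

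TS culture was compared with 2D culture, which addresses cells that survive in suspension. On the scale of log2(FPKM + 1), none of the 10 genes was more than 2-fold apart in H460 TS cells against the mean of the parental libraries (3.89% of genes were), nor in A549 TS cells against A549 2D cells (9.73% of genes). SDC2 was higher in both lines, with an FPKM of 1.85 against a parental mean of 1.03 in H460 and of 0.483 against 0.201 in A549, the latter more than 2-fold by FPKM itself. SULF1 and GPC4 were also more than 2-fold above the parental mean in H460 TS cells by FPKM, on the 21 and 54 reads given above. With a pseudocount of 0.1 the genes past 2-fold numbered 1776 in place of 483 in H460 and 3430 in place of 1226 in A549. In H460 they numbered 769 with TPM and 875 against parental 3 alone. Against single parental libraries, SDC1 in H460 TS cells was 1.00 lower than parental 1 and SDC3 was 1.34 lower than parental 3 on the log2 scale, so that 1 member passed 2-fold with either as the control. SULF2 did not leave the parental range in H460 TS cells and had a ratio of 0.854 between A549 TS and 2D cells. In the edgeR fit of both lines with the line as a covariate, 35 of 18372 genes (0.191%) were called and 0 of the 8 members tested, while 1352 genes had an unadjusted p under 0.05. The number of genes was 29 with limma and 521 with DESeq2. It was 5 without parental 2, 10 without parental 3, 236 without H460 TS, 323 without A549 TS and 338 without A549 2D. DESeq2, limma and the fits with a library left out called 0 members as well. The log2 fold change of SDC2 was 1.03 (standard error 0.38, unadjusted p = 0.03, adjusted p = 0.563), and those of the other members lay between -0.34 for GPC6 and 0.81 for GPC4.

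Between the lines in 2D culture, the make-up of the core proteins differed more than their sum. A549 cells, with 1 library, had an FPKM of 68.8 for SDC1, 3.67 times the parental H460 mean, and of 23.4 for SDC4, 3.32 times. SULF2 was 6.53 times as high. These were the 3 members more than 2-fold apart in log2(FPKM + 1), where 18.9% of genes were. With a pseudocount of 0.1 there were 5, and the genes past 2-fold numbered 5674 in place of 2474. With TPM there were 4 members, and against parental 3 alone 4. SDC2 was 5.11 times and SDC3 2.19 times higher in parental H460 by FPKM, without passing 2-fold on the log2(FPKM + 1) scale, which understates changes at low levels. GPC1 was 55.6 in A549, below the lowest parental value of 63.0. In A549, SDC1 made up 44.0% and GPC1 35.6% of the summed core proteins in 2D cells, and 49.8% and 31.5% in TS cells. The sum for A549 was 156.2 in 2D and 145.1 in TS culture.

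The genes that make, modify, degrade and use the chains were followed in 9 lists with 112 genes. In drug-resistant cells, 31 of 100 list genes tested were higher and 9 lower by edgeR (40.0% called, 33.8% of all genes), and with upper-quartile factors 41 were higher and 5 lower. Those higher include HS3ST4, MMP7, FGF1, BMP2, WNT7B and ITGB3, which passed the filter on low counts through the drug-resistant group, and HS3ST6, which may have. Nothing is therefore read from the difference in share. In PR cells alone, 24 of 103 were higher and 6 lower (29.1% called, 28.1% of all genes). In the TS fit, 0 of 99 were called.

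Of 10 genes of chain linkage and polymerisation, which build the chain, 1 was higher and 1 lower, with a median of 0.25, and with upper-quartile factors 4 were higher and 1 lower. XYLT1, which starts the linkage on the core protein, went from 6.85 ± 2.98 (SD, n = 3) up to an FPKM of 17.5 ± 3.62 (SD, n = 4), by 1.24 on the log2 scale (standard error 0.31, adjusted p = 0.0129 by edgeR). FAM20B, a kinase of the linkage sugar and the most abundant of the list, was 28.4 and 27.8. Of 14 chain modification genes tested of 16, 3 were higher and 2 lower, with a median of -0.23, and these included sulfotransferases at very low levels. HS3ST2 had 36 reads over the parental and 440 over the drug-resistant libraries, and HS3ST4 had 0 and 110. HS3ST6 had an FPKM of 0.0556, 0.515 and 0.359 in parental and 0.536 to 1.40 in drug-resistant libraries. With 105 reads over the parental libraries, it may have passed the filter through the drug-resistant group, so its p-value is not given. HS3ST1 fell from a mean FPKM of 0.358 to 0.152 (log2 fold change -1.32, adjusted p = 0.029 by edgeR). The epimerase GLCE, the most abundant of them, had means of 16.5 and 22.1 and was not called (adjusted p = 0.373). Among 7 genes of sulfate and sugar donors 0 were called in drug-resistant cells by edgeR, and 1 with upper-quartile factors. UGDH, which makes the glucuronic acid donor, had a mean of 96.5 ± 24.1 (SD) in the 3 parental and 83.4 ± 6.49 (SD) in the 4 drug-resistant libraries.

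The genes of chain turnover are mostly lysosomal enzymes. Of 11 tested of 12, 7 were higher and 1 lower, with a median log2 fold change of 0.72. IDUA, the iduronidase, went from 1.15 ± 0.501 (SD, n = 3) up to an FPKM of 7.88 ± 1.46 (SD, n = 4), by 2.65 on the log2 scale (standard error 0.36, adjusted p = 0.000586 by edgeR). ARSG, a lysosomal sulfatase, rose by 2.52 (adjusted p = 0.000965), and IDS, the iduronate sulfatase, by 1.10 (adjusted p = 0.00242). SUMF1 makes the active site of all sulfatases, SULF1 and SULF2 among them. It rose from 6.15 ± 0.166 (SD, n = 3) to 17.1 ± 2.97 (SD, n = 4), which is 1.37 on the log2 scale (standard error 0.21, adjusted p = 0.00118). HPSE, the heparanase that cleaves the chain, fell from 2.43 to 1.20 (-1.12, adjusted p = 0.00254).

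Of 12 other proteins that can carry heparan sulfate, 6 were higher and 0 lower in drug-resistant cells, with a median of 1.30 (1.46 with upper-quartile factors). CD44, a hyaluronan receptor, had a mean FPKM of 38.1 ± 1.61 (SD) in the 3 parental and 131.2 ± 16.4 (SD) in the 4 drug-resistant libraries, a rise of 1.69 on the log2 scale (standard error 0.18, adjusted p = 0.000261 by edgeR). NRP1, a co-receptor of VEGF and semaphorins, rose by 2.81 (adjusted p = 0.00116), SPOCK2 by 1.91 (adjusted p = 0.00443), the basement membrane proteoglycan AGRN by 1.38 (adjusted p = 0.0125) and COL18A1 by 1.22 (adjusted p = 0.00565). SRGN, an intracellular proteoglycan that also carries other chains, was the most abundant, at 396.0 and 698.7. Among 6 tested genes of shedding and release of 7, 2 were higher and 1 lower. ADAM17, the most abundant sheddase of the list, had 17.2 and 18.0 (adjusted p = 0.836), and MMP7 had 6 reads over the parental and 127 over the drug-resistant libraries.

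Growth factors that bind the chains were measured above the filter for 15 of 22, of which 7 were higher and 0 lower, and with upper-quartile factors 10 and 0. AREG had a mean FPKM of 0.671 ± 0.165 (SD) in the 3 parental and 3.54 ± 2.24 (SD) in the 4 drug-resistant libraries, a rise of 2.24 on the log2 scale (standard error 0.45, adjusted p = 0.00454 by edgeR), and SHH rose by 1.93 (adjusted p = 0.013). BMP2, WNT7B and FGF1, among the 7, passed the filter through the drug-resistant group, with 6, 2 and 0 over the parental and 630, 116 and 120 over the drug-resistant libraries. FGF2 was the most abundant, at 16.9 ± 0.878 (SD, n = 3) and 25.7 ± 5.50 (SD, n = 4), and was not called (adjusted p = 0.0901). Of the receptors, 1 of 14 tested was higher and 3 were lower, with a median of -0.16 (0.01 with upper-quartile factors, where 1 was higher and 1 lower). FZD4, a WNT receptor, fell from 1.86 to 0.769 (-1.39, adjusted p = 0.000509), and MET, the most abundant, had 19.9 and 16.9. Of 11 syndecan partners, 4 were higher and 1 lower. ITGB1 rose from 187.3 to 321.5 (0.68, adjusted p = 0.0303), and ITGB3, which pairs with ITGAV at adhesion sites, had 11 reads over the parental and 501 over the drug-resistant libraries.

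**Figure D4:**
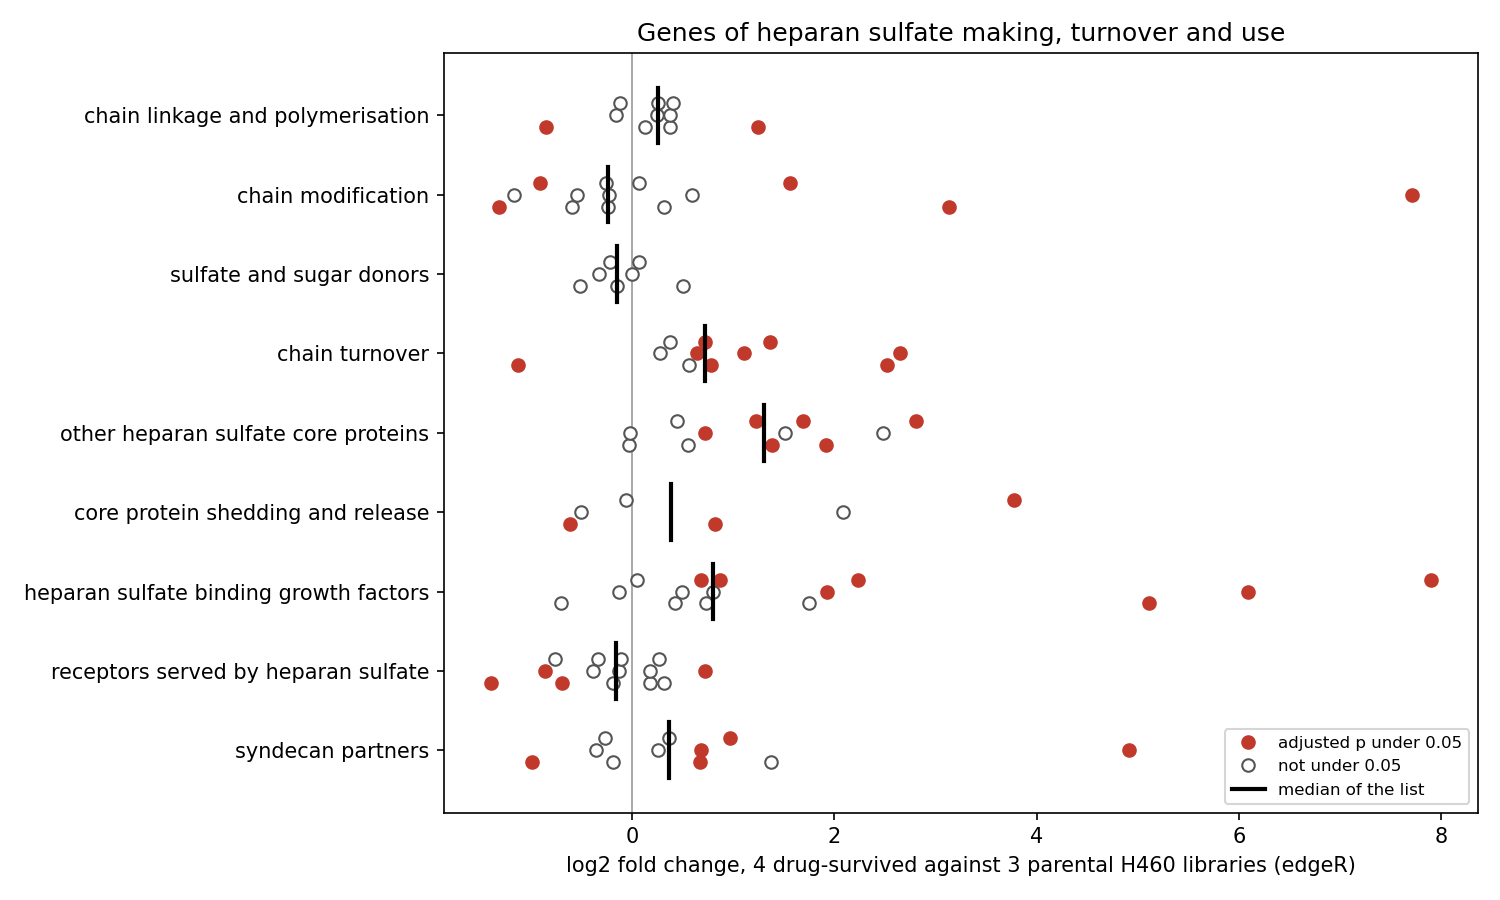
Log2 fold change by edgeR of each tested gene (points) in the 9 lists (rows), 4 drug-resistant against 3 parental libraries; filled points have an adjusted p under 0.05, the gray line is 0 and black bars are list medians, which include genes that passed the filter through the drug-resistant group. Chain turnover, growth factors and other core proteins had medians of 0.72, 0.80 and 1.30, beside 0.06 over all genes tested. The values farthest to the right, of FGF1 and HS3ST4, have 0 parental reads and depend on the prior count of the fit.

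By Pearson's r of log2(FPKM + 1) over the 10 libraries, a description without a test among 13439 genes, the patterns most like that of SULF2 were those of FRMD8 (0.983), BFSP1 (0.982) and H2BC4 (0.978). FRMD8 had an FPKM from 3.60 to 5.09 in parental and from 18.8 to 27.6 in drug-resistant libraries. Nearest to SDC1 were FHL2 (0.975), UBASH3B (0.970) and VOPP1 (0.970), which were higher in A549, as with 19.1 and 20.9 for FHL2 against at most 1.97 in H460. Nearest to GPC1 were MYOF (0.985), PCDHGB2 (0.976) and ESYT3 (0.971), and MYOF had its highest FPKM, 375.5, in the DR library. For SULF1, whose FPKM stayed below 1, they were AMPD2 (0.946), NIPA1 (0.937) and AADACP1 (0.928). The libraries fall into groups by line and treatment, so such values largely follow those groups.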

How the data were processed

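Per the labels and the submitters' processing notes, which name GRCh38, bcl2fastq 1.8.4, Trimmomatic, HISAT2 2.1.0 and StringTie 2.1.3b, poly(A) libraries were made with a TruSeq kit. The authors deposited whole-number read counts per gene, and FPKM and TPM, both deposited as normalized for transcript length and library size. Counts of 1 were rarer than counts of 2, so a count may not be 1 independent read. The counts were tested with edgeR 4.0.16 in R 4.3.3 (filterByExpr with a minimum count of 10, TMM, robust quasi-likelihood F test, Benjamini-Hochberg over all genes, threshold 0.05), and the standard error is the log2 fold change over the square root of F. The 3 planned edgeR fits were also run on simulated counts in which few genes differed. That run does not cover data where as many genes differ as in the drug-resistant cells. FPKM was used with a pseudocount of 1. Alternatives were limma 3.58.1, DESeq2 1.42.0, upper-quartile factors, no filter, a pseudocount of 0.1, TPM, single parental controls and each library left out. The members and gene lists were chosen with earlier results of these data known. Named are the members, list genes called at 2-fold or more in the drug-resistant or TS fit, the most abundant gene of most lists, and the 3 genes most alike in pattern to SULF1, SULF2 and the most abundant syndecan and glypican. Genes outside this rule, such as markers and NCOA3, were named after their values were seen or as fixed markers. Positions are from GENCODE 29. Figures were drawn with matplotlib 3.10.9 in Python 3.11.15.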

Additional observations from a re-analysis of the deposited data

Results flagged for a closer look

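In the 4 drug-resistant libraries, GPC6 was set apart in PR 1, with an FPKM of 5.17 against 2.95 to 3.28 in the other 3, and the gap to its nearest neighbour was 0.854 of the whole range. Chance alone sets apart about 1 in 20 groups, and the 10 genes were each examined.

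The differences of SDC1, SDC3, SDC4 and GPC4 with TS culture had opposite signs in the 2 lines, with H460 TS outside the parental range. Those of SDC1 and GPC4 in A549 were close to 0. For SDC1, H460 TS lay just below parental 3, with an FPKM of 12.0 against 12.6. The differences in log2(FPKM + 1) in H460 and A549 were -0.55 and 0.0714 for SDC1, -0.76 and 0.43 for SDC3, 0.48 and -0.41 for SDC4, and 0.15 and -0.0175 for GPC4, which rests on 5 and 0 reads in A549. Each line has 1 TS library, and the difference between the lines was not tested.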

How the results depend on the processing

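The 6220 genes called in drug-resistant cells stayed within 1.5 times under each alternative tried, and with a library left out the count ranged from 4216 to 6557. For PR cells, 5466 genes became 3026 with limma on log2(FPKM + 1) and 2773 with a pseudocount of 0.1, and 1008 to 6591 with a library left out. The replicate block on pairs 1 and 2 called 6648 genes, and dropping the block from that fit left 6591. The correlation of the paired differences was 0.156 over 12496 genes. The libraries of each of the 2 pairs share a number and a form of library name, and the labels give no other tie between them. For TS cells, 35 genes became 19 with limma and a pseudocount of 0.1, 521 with DESeq2, 70 with no filter, and 5 to 338 with a library left out. PR against CR and DR gave 0 genes, and 101 with limma. The cause was not tested.

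Members past 2-fold in H460 TS cells numbered 1 against parental 1 or parental 3 alone and 0 otherwise. In A549 against H460 2D cells, 3 members became 5 with a pseudocount of 0.1, 4 with TPM and 4 against parental 3 alone. SDC1 turned sign in drug-resistant cells with limma (0.0729, and 0.0789 with a pseudocount of 0.1) and upper-quartile factors (0.10), and ranged from -0.31 to 0.16 with a library left out. In PR cells it did so with limma (0.15 and 0.16) and upper-quartile factors (0.12), with a range from -0.32 to 0.16. With a library left out, GPC6 in PR cells ranged from -0.72 to 0.15. In drug-resistant cells, the difference of GPC6 in log2(FPKM + 1) was 0.33 within the first form of library name and -0.33 within the other. In the TS fit, SULF2 ranged from -0.26 to 0.0695, SDC1 from -0.64 to 0.11, SDC3 from -0.98 to 0.55, SDC4 from -0.37 to 0.54 and GPC4 from -5.43 to 1.84, and all of these crossings were in genes not called. SDC2 kept its direction in drug-resistant and PR cells in all alternatives. SULF2 did so as well, but it was known to be high in these libraries, so nothing is read from that. SULF1, GPC3 and GPC4 rest on few reads.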
